A study of Homo sapiens with 6 samples.

Results

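The genes described here encode the 3 subunits of DNA-dependent protein kinase, and the values are the USP39 binding sites found in their RNA. PRKDC encodes the catalytic subunit, XRCC5 the larger Ku subunit (Ku80) and XRCC6 the smaller one (Ku70). A site belonged to a gene if its central base lay within the annotated span and it was on the strand that carried most of that gene's sites. By this rule the genes held 208 of the 34781 sites in the list (0.598%), of which 150 lay in PRKDC, 27 in XRCC5 and 31 in XRCC6. PRKDC was selected on its number of sites in this same list, so the site counts below describe the genes and were not tested.

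USP39 is a splicing factor that enters the spliceosome with the tri-snRNP, and iCLIP2 maps where a protein touched RNA, since reverse transcription stops where UV light had fixed the protein to it. The sites came from wild-type HEK293T cells, an established line derived from human embryonic kidney, which were irradiated at 254 nm and immunoprecipitated with an antibody against USP39. RNA was taken from a low and a high region of the membrane, with 3 libraries from each, and every group shared the cell line, genotype, UV treatment and antibody. The analysed file is 1 merged list, filed under low replicate 1, and no source used here names the libraries that went into it. It holds no value per library, so no replicate error exists for any count, the 2 membrane regions were not compared, and the intervals below cover counting error only. A control that received no UV light, named in the design, was not used here, and RNA abundance was not measured, so the sites are not corrected for background or for the level of the transcripts. Of the markers chosen for HEK293T cells, IRS4 had 180 sites and VIM 22, while NEFM and NEFL had 0. ALB, APOA1, INS and HBB, markers of other tissues, had 0 sites each.

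DNA-dependent protein kinase acts in non-homologous end joining, the main route by which human cells rejoin broken DNA ends outside DNA replication. The Ku subunits form a ring that threads onto a broken end, and the catalytic subunit, a very large kinase of the same family as ATM and mTOR, is recruited to the DNA-bound ring. Processing enzymes and a ligase complex of LIG4, XRCC4 and NHEJ1 then join the ends. Human cells hold these 3 subunits in large amounts, and Ku is also known to bind some structured RNAs.

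PRKDC, the catalytic subunit gene, ranked 4 among protein-coding genes by number of sites. Its span on chromosome 8, from 47773111 to 47960136 (GRCh38), is 187 kb long, and its 150 sites lay between 47773196 and 47957411. All of them were on the minus strand and 0 were on the plus strand. This came to 0.802 sites per kb of span, introns included. Of the 20039 protein-coding genes, 4285 (21.4%) had at least 1 site, and 872 (4.35%) had at least 10, as all 3 subunit genes did. Among coding genes with a site the median was 3 sites and 0.125 sites per kb.

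For so long a gene this number was high. Of 862 other protein-coding genes whose span was within 20% of that of PRKDC, 171 had a site (19.8%), their median was 2 sites, and none had as many as PRKDC. The highest of them was HUWE1 with 93 sites. The genes with a site that were nearest to PRKDC in span, NCOR1, VPS41 and GPD2, had 4, 1 and 1 sites. The other genes with at least 50 sites were mostly far shorter, since the median span of these 70 genes, PRKDC included, was 28.6 kb and 2 of them were longer than PRKDC. Because of that length PRKDC had a lower density than 62 of the 70.

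XRCC6, the Ku70 gene, had 31 sites on the plus strand of chromosome 22 in a span of 42.7 kb from 41621295 to 41664041, or 0.725 per kb. XRCC5, the Ku80 gene, had 27 sites on the plus strand of chromosome 2 in a span of 96.9 kb from 216109348 to 216206293, or 0.279 per kb. PRKDC and XRCC6 thus had similar densities, above those of 83.9% and 82.7% of coding genes with a site, while the density of XRCC5 was above that of 66.0%. The Ku genes ranked 205 (XRCC5) and 161 (XRCC6) by number of sites. Of 1489 coding genes close to XRCC5 in span (within 20%), 15 had more sites than it, and of 2051 close to XRCC6, 30 had more. The genes with a site nearest to XRCC5 in span were among others SHLD2 with 1 site and MRE11 with 2, and those nearest to XRCC6 were DHX40 with 1, LTA4H with 4 and BAZ2A with 14. With sites whose centres lay at most 50 nt apart joined, XRCC6 fell to 16 joined sites, XRCC5 to 18 and PRKDC to 111, so that the order of the Ku genes by count turned. Per kb of span the joined sites came to 0.594 in PRKDC, 0.374 in XRCC6 and 0.186 in XRCC5. The similar densities of PRKDC and XRCC6 thus did not hold after joining at 50 nt. This depended on the joining distance. Joining at 1000 nt gave 0.289 per kb in PRKDC and 0.257 in XRCC6, and joining at 2000 nt gave 0.160 and 0.211.

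**Figure D1:**
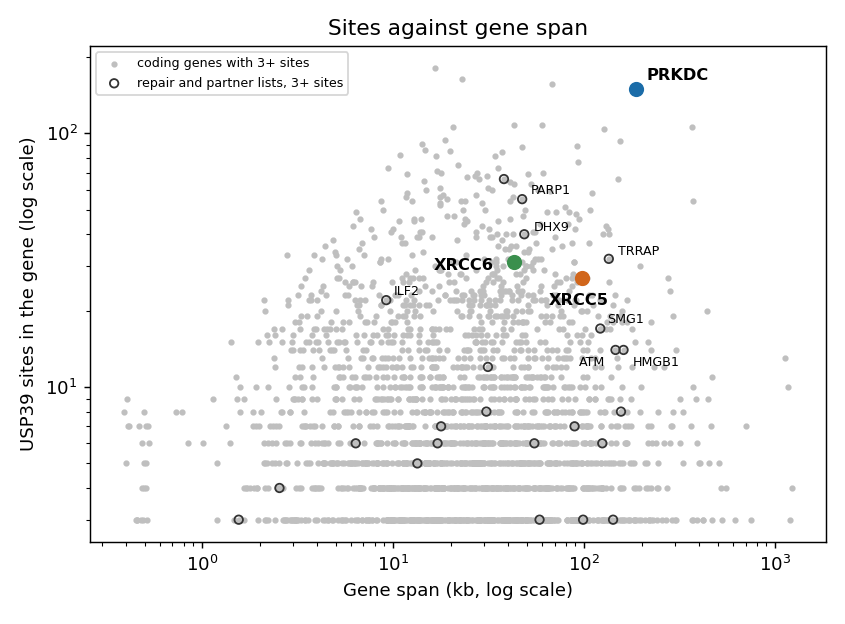
Number of USP39 sites (log scale) against gene span in kb (log scale) for protein-coding genes with at least 3 sites (grey), with the subunit genes as filled points and genes of the repair and partner lists as open circles. PRKDC, with 150 sites in 187 kb, lies above all genes of similar span, while XRCC5 (27 sites) and XRCC6 (31 sites) lie among many others.

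The strand of the sites matched the annotation where that could be looked up. The RefSeq table of gene starts (GRCh38.p14) lists XRCC6 on the plus strand, the strand of all its sites; PRKDC and XRCC5 were not matched in it. Of 1981 coding genes with at least 3 sites that are in this table, 1966 (99.2%) had most sites on the listed strand.

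In PRKDC the sites ran through the whole gene. With the span cut into 10 equal bins of 18.7 kb, counted from the 5' end, each bin held some, from 7 in bin 3 to 25 in bin 6. Bin 4 held 22 sites and bin 10, at the 3' end, 24. Bins 1 and 2 held 14 and 18, and bins 5 and 8 held 10 and 13. The sparsest after bin 3 were bins 9 and 7, with 8 and 9 sites. At this bin width sparse and dense bins alternated along the gene, and no single part held most of the sites. The alternation was not kept in steps of 10 kb, with 12 sites each from 60 to 70 kb and from 70 to 80 kb. The 5' part up to the midpoint of the span held 71 sites and the 3' part 79.

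**Figure D2:**
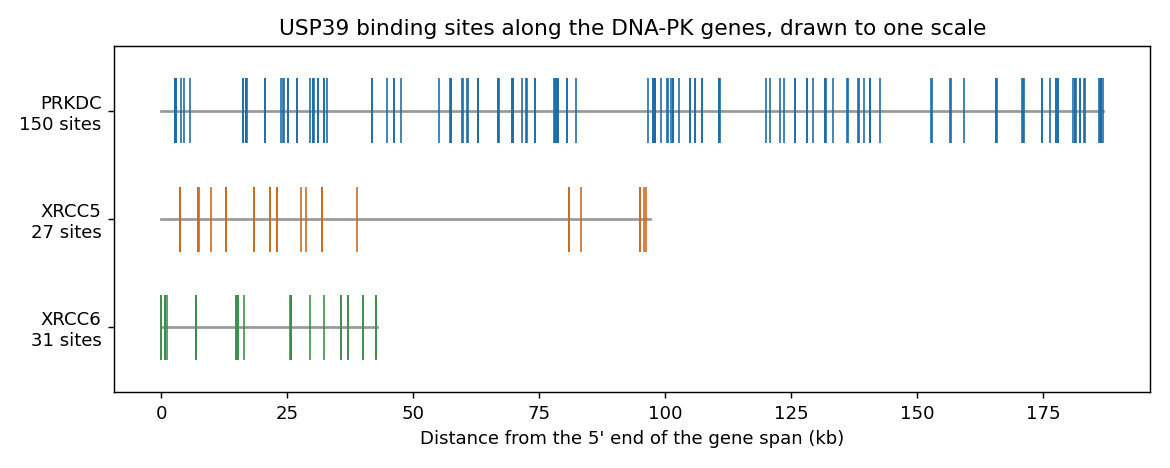
Position of every USP39 site (vertical ticks) as distance in kb from the 5' end of the gene span, with the 3 genes drawn to the same scale. The 150 sites of PRKDC start at 2.73 kb and run to the 3' end, with 14.2 kb as the longest empty stretch, whereas XRCC5 has 42.2 kb without a site.

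Seen in steps of 10 kb from the 5' end, every step of PRKDC held at least 3 sites. The most, 14 each, lay between 100 and 110 kb and in the last step at the 3' end, which is shorter than 10 kb. The densest 10 kb held 21 sites, 14% of the total, between 47852750 and 47862526, near the middle of the gene. The densest 1 kb held 7 sites, from 47881419 to 47882087. The longest stretch without a site was 14.2 kb, from 47863563 to 47877787, and 2 further stretches were over 10 kb. The widest gap therefore took up 7.61% of the span, and of the 70 coding genes with at least 50 sites 4 had a smaller share in their widest gap (median 16.5%). This share also falls with the number of sites, and most of the 70 genes had fewer sites than PRKDC.

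The evenness can be put in 1 number, the largest difference between the cumulative share of sites and the cumulative share of the span. For perfectly even spacing it is close to 0 when sites are many. It was 0.0749 in PRKDC, against a median of 0.261 over the 70 coding genes with at least 50 sites, and 2 of the 70 had a lower value, IRS4 among them at 0.0455. HELLS and SLIT2, which also had over 100 sites, had 0.285 and 0.460. A site in each of the 10 bins was found in 31 of those 70 genes (44.3%). The measure falls with the number of sites by sampling alone, and a site in every bin becomes likelier. PRKDC ranked 4 by number of sites, so most of the 70 genes had fewer, and its place among them is not corrected for this. For the same reason the 27 and 31 sites of the Ku genes cannot be set against the 150 of PRKDC on this measure. XRCC5 had 0.374 and XRCC6 had 0.201, and the median of the 283 coding genes with 20 to 40 sites was 0.340.

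XRCC5 had most of its sites spread over the first 40% of its span and a long empty stretch after them. Its first 40% held 20 of the 27 sites (74.1%, 95% Wilson interval 55.3% to 86.8%), against 61 of 150 in PRKDC (40.7%, interval 33.1% to 48.7%). The part from 40% to 80% of the span held 0 of 27 sites in XRCC5, which allows a share of up to 11.1% when 3 counts are taken as the limit (Wilson upper bound 12.5%), while in PRKDC it held 57 of 150 (38.0%, interval 30.6% to 46.0%). The last 20% of XRCC5 held the remaining 7 sites. These parts were set after the positions were seen, with the edge at 40% just after the last site before the empty stretch, and sites of a merged list are not replicates, so the difference was not tested. The empty stretch of XRCC5 ran for 42.2 kb, from 216148105 to 216190254, and made up 43.5% of the span. Among the 283 coding genes with 20 to 40 sites, 64 had a wider gap relative to their span (median 27.6%). The table of genes places 2 pseudogenes, POLHP1 and LOC100421349, in this stretch, and neither had a site.

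In XRCC6 8 of the 10 bins held a site, with 7 sites in bin 1, 6 in bin 4 and 5 in bin 10, and 0 in bins 3 and 5. Its longest empty stretch was 9.23 kb, from 41637718 to 41646938, or 21.6% of the span. The sites up to the midpoint numbered 16 and those after it 15. Filled bins and the longest empty share depend on the number of sites, so XRCC6 is not ranked against PRKDC on them.

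**Figure D3:**
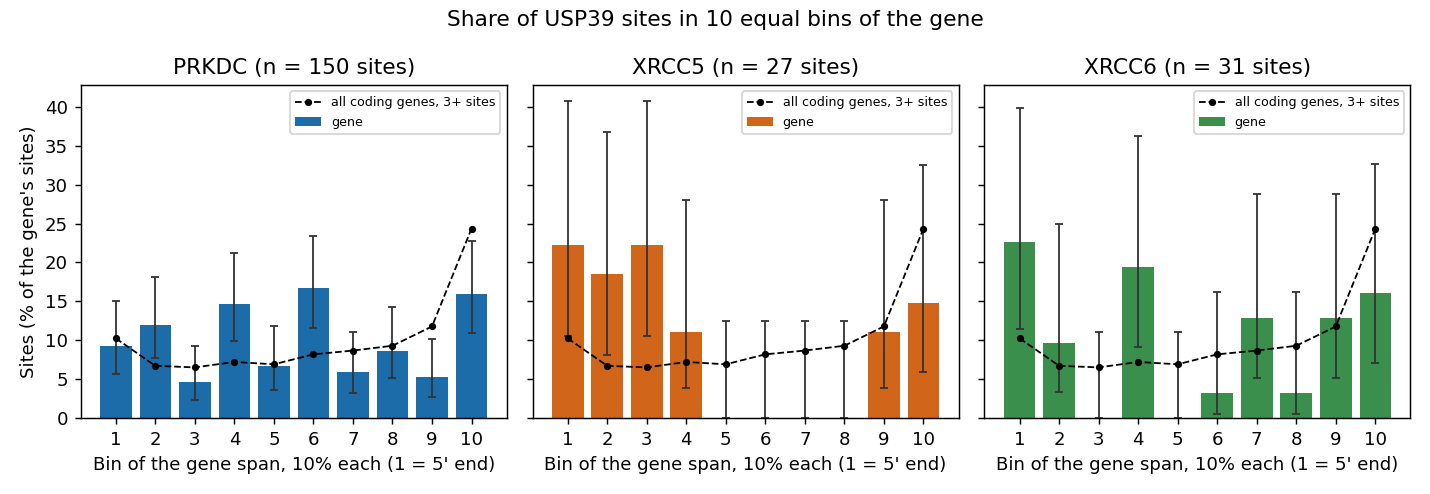
Percentage of each gene's sites in each of 10 equal bins of its span, from the 5' end (1) to the 3' end (10), with 95% Wilson intervals as error bars (counting error only) and, as a dashed line, the pooled share over 2357 protein-coding genes with at least 3 sites. The line rises to 24.3% in the last bin, where PRKDC has 16.0%, XRCC5 14.8% and XRCC6 16.1%, and XRCC5 has no site in bins 5 to 8.

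At the 3' end the shares of the subunit genes lay within each other's intervals. The last 10% of the span held 24 of 150 sites in PRKDC (16.0%, interval 10.99% to 22.7%), 4 of 27 in XRCC5 (14.8%, interval 5.92% to 32.5%) and 5 of 31 in XRCC6 (16.1%, interval 7.09% to 32.6%). Over the 28277 sites of the 2357 coding genes with at least 3 sites the share was 24.3%, which lies above the interval of PRKDC and within those of the Ku genes. More than 10% of sites in the last bin, as in all 3 genes, was found in 62.8% of those coding genes. In PRKDC the value depended on the width of the end part, as the last 20% held 32 sites, 1.07 times the number under even placement, against 1.60 times for the last 10%. The last 1000 nt of PRKDC held 6 sites, of which the last was centred 87 nt before the end of the annotated span. XRCC5 had 4 sites in its last 2000 nt, and XRCC6 had 3 in its last 500 nt.

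At the 5' end they differed more in their values. The first 10% of the span held 14 of 150 sites in PRKDC (9.33%, interval 5.64% to 15.1%), 6 of 27 in XRCC5 (22.2%, interval 10.6% to 40.8%) and 7 of 31 in XRCC6 (22.6%, interval 11.4% to 39.8%), and the intervals of the Ku genes overlap that of PRKDC. Over the coding genes the pooled share was 10.3%, and 36.5% of those genes had more than 10% of their sites there. PRKDC had 0 sites in its first 2000 nt, its first site being centred 2727 nt from the first base. In XRCC5 the first site lay 3697 nt in. XRCC6 was unlike both, with 6 sites in its first 1000 nt, the first of them 18 nt from the first base of the gene.

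The start of XRCC6 is the only stretch of the 3 genes for which sequence was used here, and it is shown because 2 sites lie within it. Among 15842 coding genes in the RefSeq table of gene starts, 386 (2.44%) had a site in the first 50 nt after a listed start on the gene's strand, and 102 (0.644%) had 2 or more. Of the 72 genes in the repair and partner lists described below, 57 were matched in this table, and of these DHX9, a helicase, and HMGB1, a chromatin protein that bends DNA, also had a site there and are set beside it. The windows are chr22:41621308-41621337 (plus strand) for XRCC6, chr1:182839367-182839396 (plus strand) for DHX9 and chr13:30465920-30465949 (minus strand) for HMGB1, each of 30 bases, 5' to 3' as DNA letters, with the bases of the USP39 sites in capitals.
XRCC6: cgtCTTCTgtccaagttggtcgCTTCCctg
DHX9: atgcgagttgctgtgcgtttctCTGTTgtc
HMGB1: ctggctggagagTAATGttacagagcggag
The XRCC6 sites are centred 18 and 37 nt from the first base, and both read C or T throughout. The DHX9 site is centred 44 nt from its start and that of HMGB1 1 nt from a listed start. Over the 460 sites that lay wholly within such windows, 76.0% of bases were C or T, with T alone at 53.9%, against 53.8% and 26.1% in the same windows of 50 nt. This describes the sites at gene starts and not those elsewhere in the genes, whose sequence was not used here.

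Sites in the subunit genes often came in small groups. A neighbour within 50 nt was found for 25 of the 31 sites of XRCC6 (80.6%, interval 63.7% to 90.8%), for 17 of 27 in XRCC5 (63.0%, interval 44.2% to 78.5%) and for 70 of 150 in PRKDC (46.7%, interval 38.9% to 54.6%). The pooled share over coding genes with at least 3 sites was 35.2%. The interval of XRCC6 lies above that of PRKDC, although no test was made. Sites of a group are neighbours of each other, while the intervals take every site as independent. The intervals are therefore too narrow to set the genes apart on this share. Of the 283 coding genes with 20 to 40 sites, 13 had a higher share than XRCC6 and 44 a higher share than XRCC5. Among the 70 genes with at least 50 sites, PRKDC was near the middle, with 37 genes higher.

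The groups were small in each gene. In PRKDC 80 sites stood alone, 24 groups held 2 sites, 6 held 3 and 1 held 4. The group of 4 lay within 99 nt, from 47881419 to 47881517, 42.1% along the gene. XRCC6 had 1 group of 4, 3 of 3 and 6 of 2, with 6 sites alone. XRCC5 had 1 group of 3 and 7 of 2, with 10 sites alone. The median distance between neighbouring sites was 296 nt in PRKDC, 68.5 nt in XRCC6 and 927.5 nt in XRCC5. In PRKDC 53 of the 149 distances were over 1000 nt, and when sites up to 1000 nt apart were joined its sites formed 54 islands, against 14 in XRCC5 and 11 in XRCC6. Per kb of span these were 0.289 in PRKDC, 0.144 in XRCC5 and 0.257 in XRCC6.

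**Figure D4:**
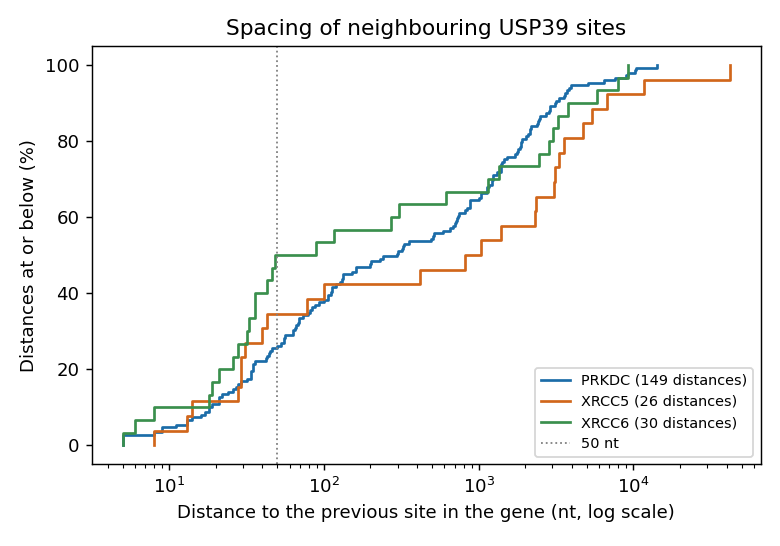
Cumulative percentage of distances between neighbouring USP39 sites in the same gene, in nt on a log scale, for PRKDC (149 distances), XRCC5 (26) and XRCC6 (30), with 50 nt marked by a dotted line. In XRCC6 15 of the 30 distances are at most 50 nt, against 9 of 26 in XRCC5 and 39 of 149 in PRKDC, and the longest distance, in XRCC5, is over 40 kb.

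Genes next to the subunit genes carried sites on the opposite strand or had none. MCM4, which encodes a subunit of the replicative helicase, starts 804 nt from the 5' end of PRKDC and runs the other way. It had 22 sites, all on the plus strand, so that the strand of the sites switched between the genes. DESI1 lies 251 nt before XRCC6 and had 4 sites, all on the minus strand. In the 10 kb before and the 10 kb after each of the subunit genes there were 0 sites on the gene's own strand. TMEM169 and MARCHF4, the coding genes around XRCC5, had 0 sites, as did CEBPD beyond the 3' end of PRKDC. SNU13, after XRCC6, had 1. A lncRNA locus within PRKDC, LOC105375818, spans 6 of the PRKDC sites, and without them the count would be 144.

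Sites were unevenly shared among the other genes of end joining. Of 22 genes on that list 10 had a site (45.5%, against 21.4% of all coding genes) and 5 had at least 3, where 11.8% of all coding genes had at least 3. These shares, and those of the lists that follow, are not corrected for RNA abundance. PARP1, a sensor of DNA breaks, had 55 sites in 47.4 kb, 18 of them in the last 10% of the span. HMGB1 had 14, while RIF1, which limits the trimming of broken ends, had 6. LIG4, XRCC4 and NHEJ1, the ligase complex that acts after the subunits described here, had 0 sites each. PAXX, a further end-joining factor, had 3 sites and DCLRE1C, the nuclease Artemis, had 1.

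The large kinases related to PRKDC had far fewer sites than it did. TRRAP, a family member without kinase activity, had 32 sites in 134.7 kb (0.238 per kb). SMG1, which acts in nonsense-mediated decay, had 17 in 121.5 kb, and ATM, the kinase that signals DNA breaks, had 14 in 146 kb. MTOR had 8 and ATR 0. Of the 11 genes on this list, which includes chaperones of the family, 7 had a site (63.6%, against 21.4% of all coding genes), and RUVBL1 had 7 and TELO2 6. The last 10% of the gene held 10 of the 32 sites of TRRAP and 5 of the 17 of SMG1, and 0 of those of ATM and MTOR.

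In the homologous recombination list, the other main route of break repair, 12 of 19 genes had a site (63.2%) and 5 had at least 3, where 21.4% and 11.8% of all coding genes did. XRCC2 led with 12 sites, followed by RAD54L with 8, XRCC3 with 7, and BLM and DNA2 with 3 each. BRCA2, PALB2, RAD50 and NBN were among those with 0. In the list of base excision and single-strand break repair 5 of 12 genes had a site (41.7%, against the same 21.4%), with 6 in LIG1, 5 in UNG, 4 in APEX1 and 2 in FEN1. XRCC1, despite its shared name a scaffold of single-strand break repair, had 0. Among 8 further genes, chosen as XRCC-named or as partners of Ku, 6 had a site (75%, the share over all coding genes again being 21.4%), among them DHX9 with 40, ILF2 with 22 and TERC with 9, the telomerase RNA. TERC is not a coding gene, so the share of 21.4% does not cover it. No gene of the 5 lists had as many sites as PRKDC, and PARP1, DHX9 and TRRAP were among those with more than either Ku gene.

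By the distribution over the 10 bins, the coding genes most like PRKDC were short. Of the 70 genes with at least 50 sites, 67 were also shorter than PRKDC, so a shorter span is not particular to the nearest genes. Likeness was measured as the share of sites that would have to move between bins to make 2 genes' profiles equal, over 181 other genes with at least 30 sites, whose median was 0.371. The nearest were IRAK1 (0.161, 32 sites), EEF2 (0.194, 73 sites), IRS4 (0.199, 180 sites), SFPQ (0.203, 81 sites) and HNRNPU (0.204, 91 sites), with spans of 9.40, 9.41, 16.6, 16.8 and 14.2 kb. Among 871 genes with at least 10 sites the nearest to XRCC5 were CALR and HMGN1 (0.190 each), NPM1 (0.204), RBM4 (0.236) and HSPA9 (0.237). For XRCC6 they were ASPM (0.185), RPS25 (0.219), MARS1 (0.247), PPIB (0.249) and HOXB9 (0.249). These are the lowest of many distances, and the median over the 871 genes was 0.579 for XRCC5 and 0.516 for XRCC6. Between the subunit genes the distance was 0.427 for PRKDC and XRCC5, 0.325 for PRKDC and XRCC6, and 0.311 for the Ku genes. The distance between the Ku genes was thus below both of their medians, and that of PRKDC was below its median for XRCC6 and above it for XRCC5. Such distances grow by sampling when genes have few sites, and the medians are not corrected for this. The Ku medians include genes with as few as 10 sites. XRCC5, with 27 sites, is outside the pool of genes with at least 30 that gave the PRKDC median.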

How the data were processed

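The submitters' processing notes name STAR 2.7.3a, UMI-tools 1.1.2, FastQC 0.11.9, bedtools 2.29.2, SAMtools 1.10 and build GRCh38.p12, without roles or order. For the site caller and its filters, nothing is stated there. The authors deposited a BED list of 34781 sites, each 5 nt wide, whose score is 0 throughout, so sites have no height and depth is unknown. Gene spans came from a RefSeq table (GRCh38.p14; no exons). Outside the subunit genes, a site in several genes went to small RNAs first, then coding genes, then others; remaining ties went by strand. Positions run from the 5' end by the main strand. The members, lists and parts of genes were chosen with earlier results of these data known. Named genes are the members, their neighbours, up to 4 genes per list with the most sites, and the nearest by profile or span; other genes of the lists, HUWE1, HELLS and SLIT2 were picked after their values were seen. Shares have 95% Wilson intervals. A few genes that this rule names are not reported here. No test was made. The functions were tested on simulated sites. Python 3.11.15 was used with scipy 1.17.1, pandas 2.3.3, numpy 2.4.6 and matplotlib 3.10.9.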

Additional observations from a re-analysis of the deposited data

How the results depend on the processing

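No paired analysis was possible because the merged list has no values per library, and for the same reason no replicate could be left out. Of 55 alternatives, 39 left the value within 1.5 times (counts) or within its Wilson interval (shares). Counting a site by its whole width, by any overlap or on both strands left the 3 site counts at 150, 27 and 31. Joining sites within 100 nt gave 93 sites in PRKDC, 16 in XRCC5 and 15 in XRCC6, and joining within 50 nt gave 16 in XRCC6. The last 20% of PRKDC held 1.07 times the sites under even placement, and the first 5% of XRCC6 4.52 times. With neighbours counted within 20 nt the shares of sites with one were 21.3% in PRKDC, 22.2% in XRCC5 and 32.3% in XRCC6, and within 200 nt the share in PRKDC was 78.0%; fewer or more neighbours follow from the distance itself. Requiring 3 sites, joined or not, left 5 of the 22 end joining genes, where 10 had a site. It left 5 of the 19 homologous recombination genes, where 12 had a site, and 3 of the 12 base excision genes, where 5 did. Over all coding genes 11.8% had at least 3 sites and 11.3% at least 3 joined sites. Depth is unknown, so it cannot be said which empty stretches are short of reads.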

Other observations

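Other genes of the lists differed in where along the span their sites lay. All 14 sites of HMGB1 were in the last 10% of its 160.9 kb span, as were the 3 sites of HMGA2, a chromatin protein gene of 141.8 kb. ILF2 had 1 of its 22 sites in that part. Of the 6 sites of RIF1, 0 were in the last 10% of its 124.5 kb. These positions refer to the annotated span, which covers every transcript of a gene, so they do not show where the transcript used in these cells begins. In HMGB1, 1 of the 14 sites was centred 1 nt from a listed start. The last 10% of its span therefore also holds a listed start and is not only a 3' end.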
